A study of Mus musculus with 12 samples.

Results

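The genes described here signal and repair DNA damage. They are 37 named genes of double-strand break end joining, homologous recombination with crosslink repair, excision and mismatch repair, and damage signalling. They were chosen by name, with earlier results of these data known. On the array, 35 of the 37 had a probe set paired with their symbol alone. Each was read from its probe set with the highest mean log2 intensity over the 12 tumors. Xrcc2 and Dclre1c are not analysed here, and Bard1, at a mean log2 intensity of 5.26, lay under the filter on dim genes and was not tested. The remaining 34 were among the 12735 genes tested, of 18193 genes with a single-symbol probe set.

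Whole-tumor RNA came from subcutaneous flank tumors of LLC, the Lewis lung carcinoma line. The hosts were C57BL/6 females, 6 to 8 weeks old, allotted to treatment at tumor volumes of 60 to 80 mm3, and tumors were taken on day 19 after injection. There were 4 groups of 3 tumors. The 1D11_radiation tumors received 1D11, an antibody that neutralizes TGF-beta, with radiation. The radiation tumors received radiation with 13C4, the antibody that the control tumors also received and that serves as isotype control of 1D11. The 1D11 tumors received 1D11 without radiation, and the control tumors received 13C4 without radiation. All 12 tumors therefore carried an antibody and the same single cell line. The labels of both irradiated groups disagree on dose: one field states 5 fractions, each of 6 Gy, another states 2 Gy, and this could not be settled. The time between the last fraction and collection is not given in the sources used here. The labels do not say that the 3 replicates of a group came from separate mice, so p-values measure only the spread between these samples, which may be technical.

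Ionizing radiation breaks both DNA strands and damages bases. Classical end joining seals a break directly: the Ku proteins (Xrcc5 and Xrcc6) hold the ends and recruit the kinase Prkdc, and Xrcc4 with Nhej1 (XLF) aligns them for ligase IV. Homologous recombination copies an intact sister strand and so works in cells that have replicated their DNA. Excision repair replaces damaged bases or bulky lesions. The kinases Atm and Atr start the signal through Chek2 and Chek1. In a whole tumor the level of a transcript does not show the activity of its protein.

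The arrays were alike in overall scale, with medians of 62.3 to 66.1 intensity units. Epithelial Krt8 and Krt18 were bright (mean log2 intensity 12.16 and 12.10), Cdh1 was under the filter level (4.85), and so were the lung markers Sftpc, Scgb1a1 and Nkx2-1 (3.78 to 5.24). The labels' descriptions call the samples cells, while leukocyte Ptprc (10.56), fibroblast Dcn (13.26) and skeletal muscle Acta1 (11.11) were all well above the filter. List means of 10 skeletal muscle markers, centred over the tumors, were 2.14 in radiation replicate 3 and 1.17 in control replicate 1, against -1.56 to 0.68 in the other tumors. Those of 4 keratinocyte markers were 2.29 and 1.04 in 1D11 replicates 3 and 1, and below 0 in the other tumors. In such bulk samples, fewer cells of a type and less RNA per cell cannot be told apart.

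The promoters of the 4 members that passed the test between irradiated and unirradiated tumors are shown first, because the results turn on these genes. They are from RefSeq (GRCm38.p6), 5′ to 3′, from 250 bases before to 50 bases after the start. Nhej1 is at chr1:75125177-75125476, minus strand. Xrcc4 is at chr13:90089559-90089858, minus strand. Lig3 is at chr11:82780859-82781158, plus strand. Ercc1 is at chr7:19344821-19345120, plus strand. Capitals mark GC boxes (GGGCGG on either strand).
Nhej1: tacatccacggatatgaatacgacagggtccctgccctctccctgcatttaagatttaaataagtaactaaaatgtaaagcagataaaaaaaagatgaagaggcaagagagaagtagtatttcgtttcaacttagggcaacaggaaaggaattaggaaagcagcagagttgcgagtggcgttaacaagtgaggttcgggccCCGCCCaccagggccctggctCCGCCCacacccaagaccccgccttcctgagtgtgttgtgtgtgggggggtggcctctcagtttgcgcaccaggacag
Xrcc4: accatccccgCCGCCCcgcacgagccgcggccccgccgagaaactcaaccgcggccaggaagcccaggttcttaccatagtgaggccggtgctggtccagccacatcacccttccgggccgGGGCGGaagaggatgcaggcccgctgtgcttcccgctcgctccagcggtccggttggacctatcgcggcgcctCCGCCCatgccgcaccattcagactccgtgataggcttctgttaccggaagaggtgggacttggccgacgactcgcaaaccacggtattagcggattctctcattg
Lig3: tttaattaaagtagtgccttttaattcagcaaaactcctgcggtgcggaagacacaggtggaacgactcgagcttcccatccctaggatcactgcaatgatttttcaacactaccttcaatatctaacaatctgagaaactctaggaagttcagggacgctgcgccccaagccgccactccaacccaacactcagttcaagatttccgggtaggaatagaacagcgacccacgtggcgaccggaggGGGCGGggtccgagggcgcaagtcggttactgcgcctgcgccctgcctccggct
Ercc1: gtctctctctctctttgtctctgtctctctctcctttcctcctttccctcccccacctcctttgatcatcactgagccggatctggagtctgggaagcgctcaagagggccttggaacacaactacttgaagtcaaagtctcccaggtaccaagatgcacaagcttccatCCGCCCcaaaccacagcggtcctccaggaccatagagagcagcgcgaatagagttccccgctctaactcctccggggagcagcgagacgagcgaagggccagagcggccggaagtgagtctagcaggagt

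All 4 windows held at least 1 GC box, with 3 in Xrcc4, 2 in Nhej1 and 1 each in Lig3 and Ercc1. A GC box was found in 26 of 33 promoter windows of 30 measured members (78.8%), and in 35.7% of the 32851 windows in the table. The median GC content was 59.7% in the members' windows and 52.7% in all. An E2F motif (TTTGGCGC, TTTCGCGC or TTTCCCGC, either strand) was in the windows of 7 members, Bard1, Brca2, Chek2, Mdc1, Msh6, Rad51c and Xrcc6. That was 24.2% of the members' windows, against 1.84% of all windows. The CCAAT box (CCAAT) was in the windows of 15 members, or 48.5% of the members' windows against 37.4% of all windows. The CHR motif (TTTGAA) was in those of 2 members, or 6.06% against 17.9%. None of the 4 windows printed above held E2F, CCAAT or CHR motifs, and no member's window held a full p53 site, which was in 0.0731% of all windows.

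Over both antibodies, the 6 irradiated tumors had less Nhej1, Xrcc4 and Lig3 mRNA and more Ercc1 mRNA than the 6 unirradiated tumors. Each gene was read from 1 probe set, and the other probe sets of Lig3 disagreed in sign. These 4 of 34 members were called (limma, adjusted p under 0.05, with the Benjamini-Hochberg step run across the 12735 genes), 3 lower and 1 higher. Over all genes 7.26% were called, 3.87% lower and 3.39% higher, so the members' count is near that background. At an unadjusted p under 0.05 there were 8 members, against 24.3% of all genes. The 4 were also the only members whose irradiated and unirradiated tumors did not overlap, 3 lower and 1 higher, against 4.36% of all genes (2.41% lower and 1.95% higher). The members' median log2 change was -0.05 against -0.01 for all genes, and 23 of 34 were lower. The 95% interval of the change lay within 0.5 of 0 on the log2 scale for 31 members.

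**Figure D1:**
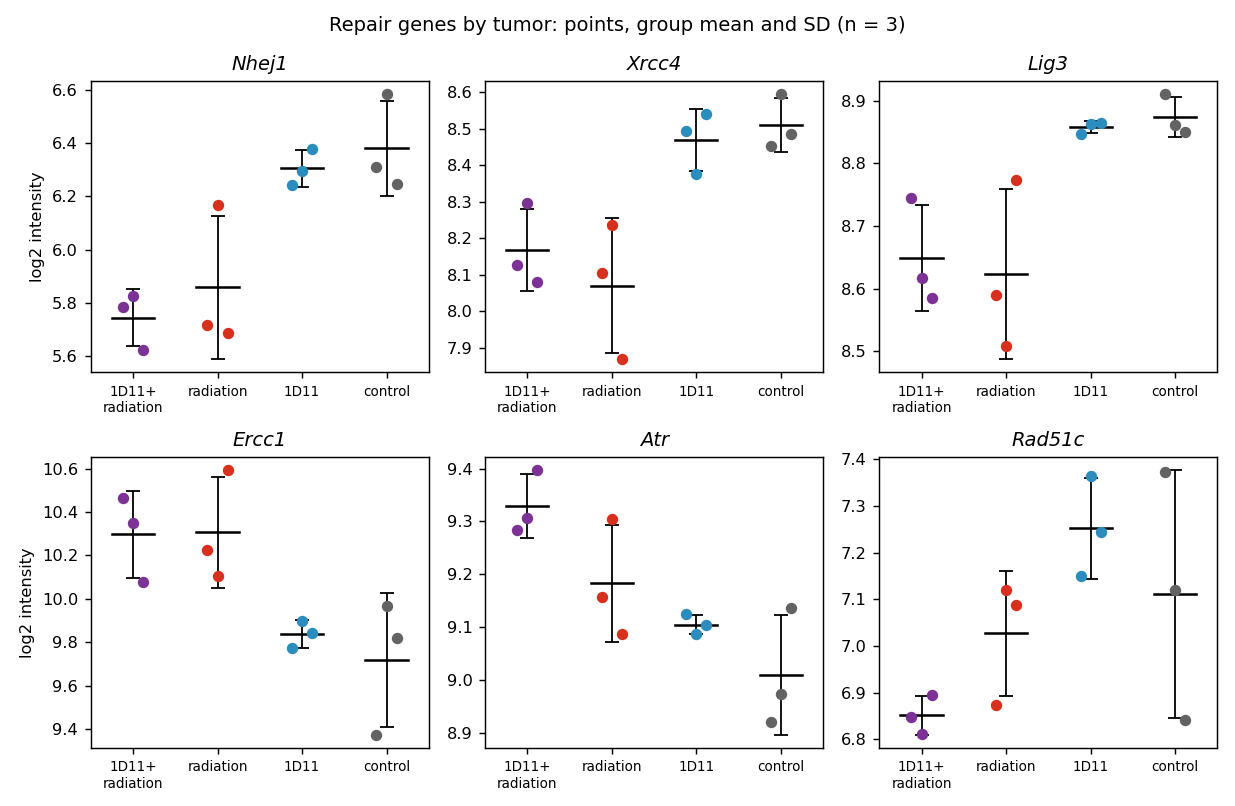
Log2 intensity of 6 repair genes in each of the 12 tumors (points), with group mean and SD as bars (n = 3 per group), and a separate vertical axis for each gene that does not start at 0. The irradiated groups (left pair in each panel) lie below both unirradiated groups for Nhej1, Xrcc4 and Lig3 and above them for Ercc1.

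Nhej1 encodes XLF, the filament partner of Xrcc4 in end joining. Its log2 intensity was 5.78, 5.82 and 5.62 in 1D11_radiation tumors and 5.72, 6.17 and 5.69 in radiation tumors, against 6.24, 6.30 and 6.38 in 1D11 tumors and 6.31, 6.58 and 6.25 in control tumors. All 6 irradiated tumors were lower than all 6 unirradiated ones. Nhej1 fell by 0.54 ± 0.09 (log2 change ± SE, n = 6 tumors each, adjusted p = 0.00896, limma), to 0.686-fold. Its other probe set was under the filter level (5.26) and had -0.04 ± 0.06.

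Xrcc4 is the scaffold that stabilizes ligase IV. It measured, as log2 intensity, 8.13, 8.30 and 8.08 in 1D11_radiation tumors and 8.10, 8.23 and 7.87 in radiation tumors, against 8.49, 8.37 and 8.54 in 1D11 tumors and 8.45, 8.59 and 8.49 in control tumors. Here too the 6 irradiated tumors did not overlap the 6 others. Xrcc4 fell by 0.37 ± 0.07 (adjusted p = 0.0124, limma), to 0.773-fold, and its second probe set had -0.24 ± 0.06. Both genes passed with any single tumor left out.

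The other 4 end joining genes were lower in irradiated tumors without passing the test. Lig4, the ligase of the pathway, had -0.16 ± 0.07 (adjusted p = 0.195, limma), Xrcc5 -0.15 ± 0.07 (0.235), Prkdc -0.11 ± 0.06 (0.264) and Xrcc6 -0.10 ± 0.07 (0.428). All 6 measured end joining genes were thus on the lower side, with a median of -0.15, while 45.3% of all genes were higher. Also lower were 7 of 8 excision and mismatch repair genes and 6 of 8 signalling genes, each set with a median of -0.04. The probe sets used for Nhej1, Xrcc4 and Ercc1 carry the suffix _s_at, which in Affymetrix naming marks probes that can match more than 1 transcript.

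Ercc1 is the partner of the Xpf nuclease, which cuts beside bulky lesions and crosslinks. Ercc1 measured, as log2 intensity, 10.47, 10.35 and 10.08 in 1D11_radiation tumors and 10.22, 10.10 and 10.59 in radiation tumors, against 9.77, 9.90 and 9.84 in 1D11 tumors and 9.37, 9.97 and 9.82 in control tumors. Every irradiated tumor was higher than every unirradiated one, with control replicate 1 the lowest. Ercc1 rose by 0.52 ± 0.12 (adjusted p = 0.0233, limma), to 1.44-fold. Its second bright probe set had 0.62 ± 0.10, and a dimmer one had 0.03 ± 0.07. Cd3eap overlaps Ercc1 on the opposite strand in the RefSeq annotation, and its own probe set had 0.02 ± 0.06. The Ercc1 call ended without 1D11 replicate 1, 2 or 3, radiation replicate 1 or 1D11_radiation replicate 1, at log2 changes of 0.48 to 0.54 and adjusted p of 0.0504 to 0.0560.

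Lig3 encodes the ligase that seals nicks in base excision repair with Xrcc1 and serves mitochondrial DNA. Its log2 intensity was 8.75, 8.62 and 8.58 in 1D11_radiation tumors and 8.59, 8.51 and 8.77 in radiation tumors, against 8.85, 8.86 and 8.87 in 1D11 tumors and 8.91, 8.86 and 8.85 in control tumors. The unirradiated tumors lay close together and all above the irradiated ones. Lig3 fell by 0.23 ± 0.05 (adjusted p = 0.0272, limma), to 0.853-fold. Its 5 probe sets disagreed. The next 2 by brightness had -0.18 ± 0.07 and -0.13 ± 0.07, a dimmer one had 0.07 ± 0.06, and one under the filter level had 0.47 ± 0.08. With the mean of all 5 the change was 0.00 (adjusted p = 0.997). Rffl, which overlaps Lig3 on the opposite strand, had 0.19 ± 0.09. The Lig3 call ended without any 1 of the 1D11 tumors, radiation replicate 1 or 2, or 1D11_radiation replicate 2 or 3, at -0.23 to -0.20 and adjusted p of 0.0535 to 0.0760.

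The remaining excision and mismatch repair genes stayed close to 0. Parp1, the sensor of strand breaks, had -0.01 ± 0.08, its scaffold Xrcc1 -0.03 ± 0.08, the glycosylase Ogg1 -0.03 ± 0.07, the endonuclease Apex1 -0.05 ± 0.05, the mismatch sensor Msh6 -0.06 ± 0.07 and the gap-filling polymerase Polb -0.08 ± 0.08. Their adjusted p ran from 0.592 to 0.952 (limma). Of these 6 intervals, that of Polb reached farthest from 0, to -0.25.

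Homologous recombination genes fell on both sides of 0, 8 of 12 higher and 4 lower, with a median of 0.05 and none called (limma, 2 at an unadjusted p under 0.05). Rad51c, which acts in recombination and crosslink repair, came nearest on the lower side. Rad51c log2 intensity was 6.85, 6.81 and 6.90 in 1D11_radiation tumors and 6.87, 7.12 and 7.09 in radiation tumors, against 7.15, 7.36 and 7.24 in 1D11 tumors and 7.37, 7.12 and 6.84 in control tumors. Its change was -0.24 ± 0.09 (adjusted p = 0.110), and control replicates 2 and 3 lay among the irradiated tumors. Fanca, of the Fanconi anemia core complex, had 0.15 ± 0.07 (adjusted p = 0.188) and Rad52 0.12 ± 0.07 (0.327). Brca1 had -0.08 ± 0.06 and the breast cancer susceptibility gene Brca2 0.07 ± 0.09. Nbn had -0.17 ± 0.10, and Rad50, its partner in the break-sensing complex, 0.05 ± 0.04.

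Among the signalling genes, Atr, the kinase that answers stalled replication, came nearest the threshold. Atr log2 intensity was 9.28, 9.31 and 9.40 in 1D11_radiation tumors and 9.16, 9.30 and 9.09 in radiation tumors, against 9.12, 9.09 and 9.10 in 1D11 tumors and 8.92, 8.97 and 9.14 in control tumors. The change was 0.20 ± 0.05 (adjusted p = 0.0507, limma), and radiation replicate 3 lay among the unirradiated tumors. Its other 2 probe sets had 0.19 ± 0.09 and 0.42 ± 0.17. The call was gained without control replicate 3 or radiation replicate 3. Atm, the kinase of strand breaks, had -0.13 ± 0.08, and its second probe set -0.17 ± 0.06. Rnf168 had -0.11 ± 0.07, Rnf8 -0.09 ± 0.06 and Trp53bp1 -0.06 ± 0.06. The checkpoint kinases Chek1 and Chek2 both had -0.01 ± 0.07, and the adaptor Mdc1 had 0.03 ± 0.06.

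**Figure D2:**
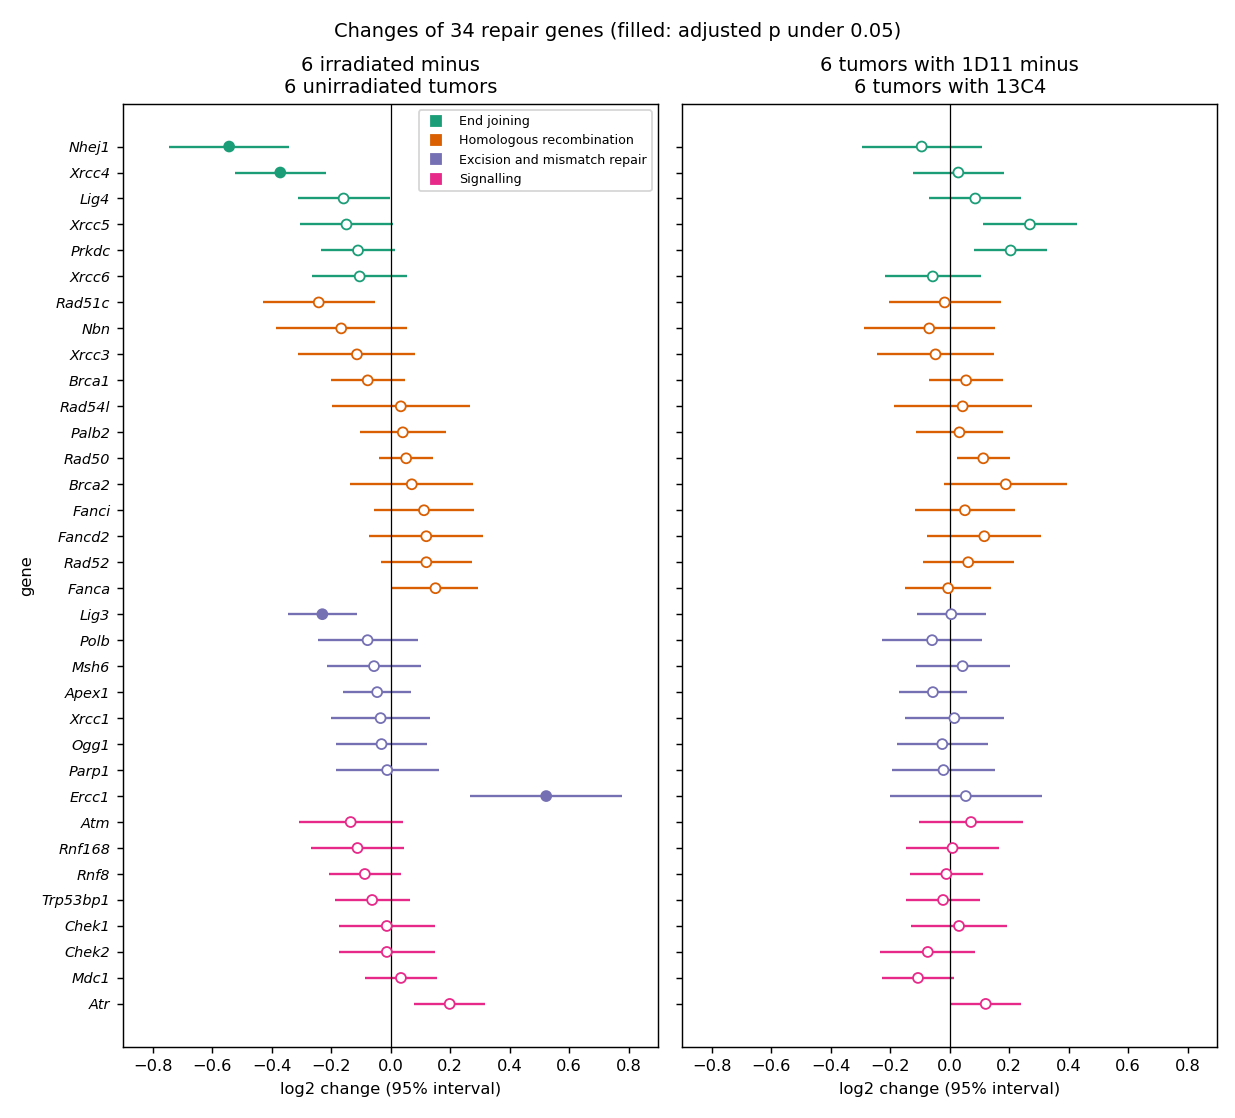
Log2 change with 95% interval (bars) of the 34 tested members by role, for 6 irradiated minus 6 unirradiated tumors (left) and 6 tumors with 1D11 minus 6 with 13C4 (right); filled points passed the test. Nhej1, Xrcc4, Lig3 and Ercc1 are filled on the left and no gene is filled on the right.

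Separated by antibody, the radiation effects of the members were alike in sign for 26 of 34, against 63.2% of all genes. These comparisons share no tumor. Across the 34 members the log2 changes of 1D11_radiation against 1D11 and of radiation against control had Pearson's r of 0.84 (Spearman 0.80), against 0.39 (0.39) over all genes. Without Nhej1, Xrcc4, Ercc1 and Lig3 it was 0.67 (0.72) over 30 members. Genes are not independent replicates, members of a pathway can vary together within a tumor, and no p is given.

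**Figure D3:**
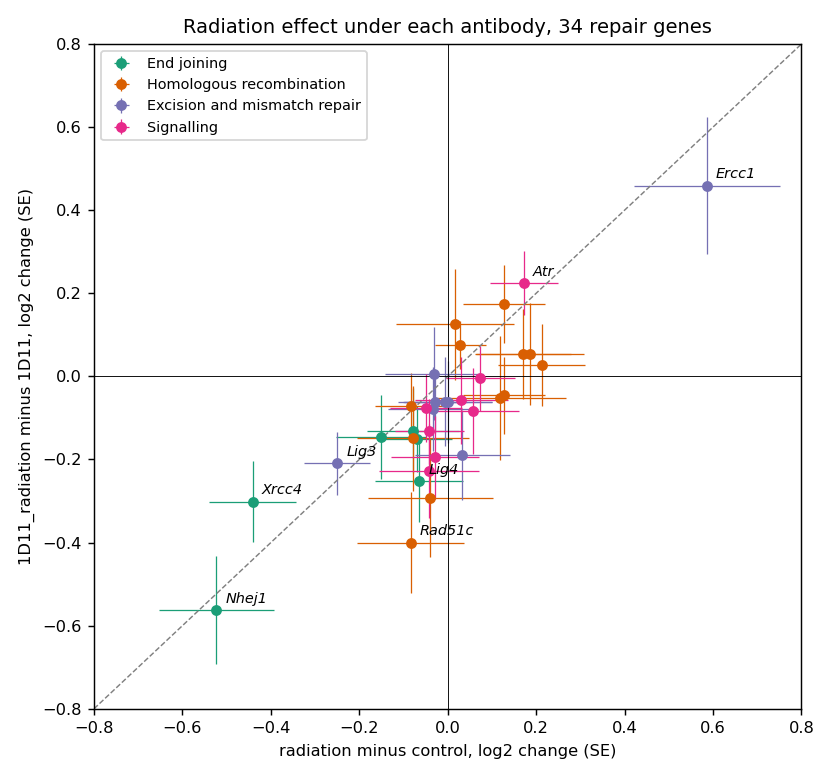
Log2 change with SE of the 34 members for 1D11_radiation minus 1D11 (vertical) against radiation minus control (horizontal), colored by role, with the line of equal change dashed. Nhej1, Xrcc4 and Ercc1 lie far from 0 on both axes, and Rad51c and Lig4 lie mainly along the vertical axis.

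Under 1D11 (1D11_radiation against 1D11) no member was called, with 0.0785% of all genes called (limma; 0.0314% higher and 0.0471% lower), and 7 had an unadjusted p under 0.05, or 20.6% of members against 15.5% of all genes. Nhej1 had -0.56 ± 0.13 (adjusted p = 0.0933), Rad51c -0.40 ± 0.12 (0.153), Xrcc4 -0.30 ± 0.10 (0.178), Lig4 -0.25 ± 0.10 (0.252) and Ercc1 0.46 ± 0.16 (0.214). In 10 members all 3 irradiated tumors were lower than all 3 others, and in 2 (Atr and Ercc1) all were higher, against 16.5% and 9.59% of all genes. Of the 6 end joining genes 5 were among the 10, the exception being Xrcc5. Xrcc6 and Prkdc only just separated. The highest 1D11_radiation tumor was at 9.223 for Xrcc6, against 9.226 in the lowest 1D11 tumor. For Prkdc these were 8.706 and 8.718.

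Under 13C4 (radiation against control) 1 member was called, Xrcc4, with 2.39% of all genes called, 1.48% higher and 0.911% lower. Xrcc4 fell by 0.44 ± 0.10 (n = 3 each, adjusted p = 0.0437, limma). That call ended without control replicate 2 or 3, any 1 of the 1D11 tumors, any 1 of the radiation tumors, or 1D11_radiation replicate 1 or 3, at -0.52 to -0.34 and adjusted p of 0.0590 to 0.124. It also ended with the 2 groups alone in the fit (adjusted p = 0.169). Nhej1 had -0.52 ± 0.13 (0.0592), Ercc1 0.59 ± 0.16 (0.0844) and Lig3 -0.25 ± 0.08 (0.105). In 3 members (Xrcc4, Nhej1 and Lig3) all irradiated tumors were lower than all control tumors and in 1 (Ercc1) all were higher, against 10% and 10.6% of all genes.

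The difference between both radiation effects, the interaction, was not past the threshold for any member or any other gene (0% of all genes, limma), and no member had an unadjusted p under 0.05, against 7.48% of all genes. The largest was Rad51c at -0.32 ± 0.17 (adjusted p = 0.749). For Nhej1 it was -0.04 ± 0.18, with a 95% interval of -0.44 to 0.36, and for Xrcc4 0.14 ± 0.14 (-0.16 to 0.44). For Ercc1 it was -0.13 ± 0.23 (-0.64 to 0.38) and for Lig3 0.04 ± 0.11 (-0.19 to 0.27). These intervals still hold differences as large as the change itself for Ercc1, Xrcc4 and Lig3.

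Over both radiation states, the 6 tumors with 1D11 were set against the 6 with 13C4. No member was called (limma; 0.00785% of all genes were called), and 4 had an unadjusted p under 0.05, all higher with 1D11. These were Xrcc5, Prkdc, Rad50 and Atr, 11.8% of members against 12.5% of all genes. Every member's 95% interval lay within 0.5 of 0 on the log2 scale. The members' median was 0.02, as for all genes.

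Xrcc5 encodes Ku80. Its log2 intensity was 8.93, 9.06 and 8.90 in 1D11_radiation tumors against 8.51, 8.73 and 8.84 in radiation tumors. It was 9.03, 9.12 and 9.18 in 1D11 tumors against 8.70, 9.01 and 8.81 in control tumors. Each 1D11 group lay above its 13C4 counterpart without overlap. In unirradiated tumors the split was narrow, at 9.026 in 1D11 replicate 1 against 9.013 in control replicate 2. The change over both radiation states was 0.27 ± 0.07 (adjusted p = 0.269, limma).

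Prkdc encodes the DNA-dependent kinase that Ku recruits. Its log2 intensity was 8.71, 8.61 and 8.68 in 1D11_radiation tumors against 8.44, 8.52 and 8.55 in radiation tumors. It was 8.81, 8.92 and 8.72 in 1D11 tumors against 8.71, 8.48 and 8.52 in control tumors. Its groups did not overlap within either radiation state, and its change was 0.20 ± 0.06 (adjusted p = 0.269, limma). In unirradiated tumors Prkdc only just separated, at 8.718 in 1D11 replicate 3 against 8.715 in control replicate 1. Rad50 had 0.11 ± 0.04 and Atr 0.12 ± 0.05 (adjusted p = 0.327 and 0.397). Nhej1 (-0.09 ± 0.09), Xrcc4 (0.03 ± 0.07), Ercc1 (0.05 ± 0.12) and Lig3 (0.00 ± 0.05), which differed with radiation, had smaller values here.

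**Figure D4:**
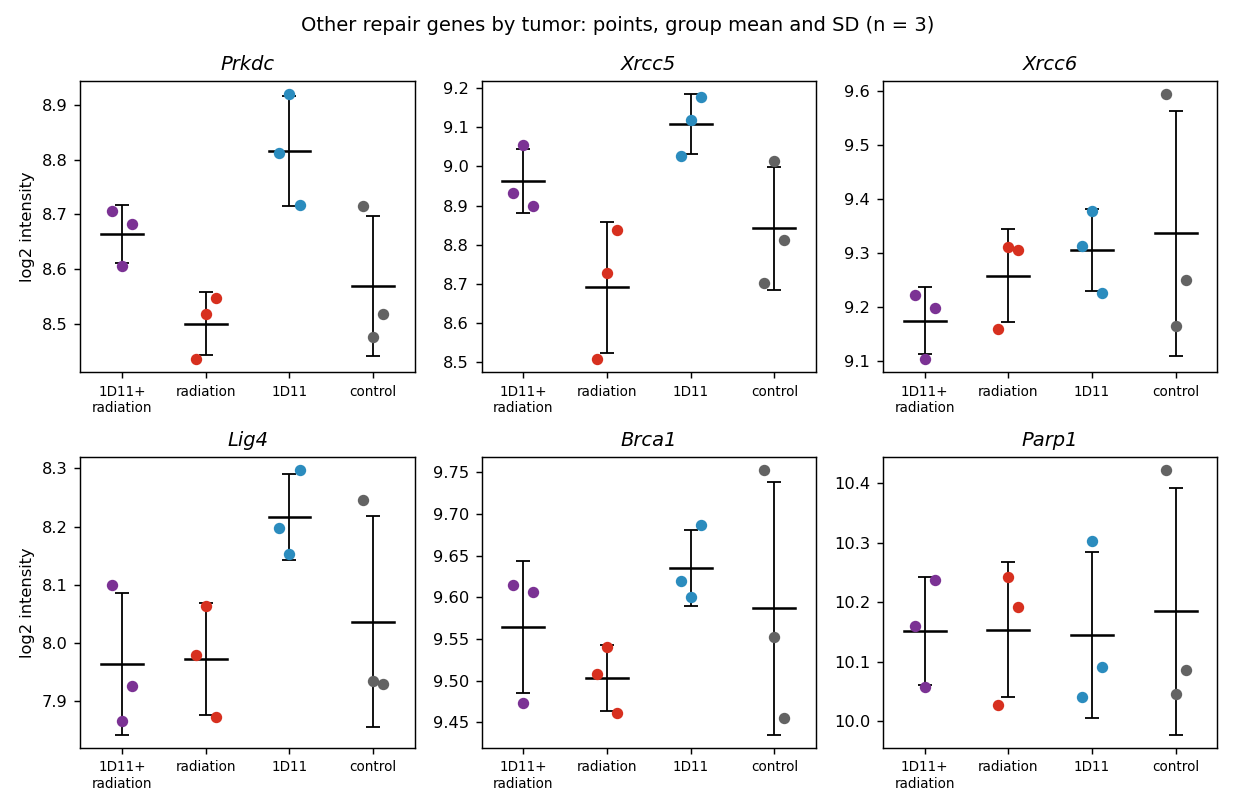
Log2 intensity of 6 further members in each tumor (points), with group mean and SD as bars (n = 3 per group), and a separate vertical axis for each gene that does not start at 0. Prkdc and Xrcc5 are higher in each 1D11 group than in the 13C4 group of the same radiation state, and none of the 6 passed a test.

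In irradiated tumors alone (1D11_radiation against radiation) no member was called (0% of all genes, limma), and 2 had an unadjusted p under 0.05, Xrcc5 (0.27 ± 0.10) and Rad50 (0.14 ± 0.06), against 5.4% of all genes. Groups did not overlap in 3 members that were higher (Xrcc5, Rad50 and Prkdc) and 4 that were lower (Mdc1, Chek2, Nbn and Xrcc3), against 7.3% and 6.12% of all genes. In unirradiated tumors (1D11 against control) no member was called either, with 0.0157% of all genes called. Prkdc (0.25 ± 0.08, adjusted p = 0.219) and Xrcc5 (0.27 ± 0.10, adjusted p = 0.288) had an unadjusted p under 0.05 there, against 14.1% of all genes. They were the only 2 members whose groups did not overlap, both higher, against 12.1% higher and 6.95% lower of all genes. The comparisons against control share the same 3 control tumors.

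The combined treatment against neither (1D11_radiation against control) gave 1 called member, Nhej1, with 2.35% of all genes called, 1.71% higher and 0.636% lower. At an unadjusted p under 0.05 there were 6 members, against 21.2% of all genes. Nhej1 fell by 0.64 ± 0.13 (adjusted p = 0.0363, limma), to 0.643-fold. That call ended without control replicate 1 or 2, any 1 of the 1D11 tumors, or any 1 of the 1D11_radiation tumors, at -0.68 to -0.54 and adjusted p of 0.0507 to 0.118. Atr followed at 0.32 ± 0.08 (0.0561), Ercc1 at 0.58 ± 0.16 (0.0822) and Xrcc4 at -0.34 ± 0.10 (0.0827). Groups did not overlap in 3 members that were higher (Atr, Ercc1 and Rad50) and 4 that were lower (Nhej1, Xrcc4, Lig3 and Apex1), against 14.7% and 12% of all genes (26.7% in either direction).

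Of 90 symbols of other repair and checkpoint genes, 78 were tested. In irradiated against unirradiated tumors 4 of them were called, 1 higher and 3 lower, with a median of -0.03. The share of all genes called there was 7.26% (3.39% higher and 3.87% lower). Hus1, a part of the checkpoint clamp, rose by 0.47 ± 0.08 (adjusted p = 0.00813, limma). Hus1 log2 intensity was 9.14, 9.18 and 9.18 in 1D11_radiation tumors and 9.24, 9.15 and 8.82 in radiation tumors, against 8.75, 8.56 and 8.84 in 1D11 tumors and 8.64, 8.46 and 8.62 in control tumors. Only radiation replicate 3 fell below an unirradiated tumor, 1D11 replicate 3.

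Rev3l, the catalytic subunit of a translesion polymerase, fell by 0.30 ± 0.05 (adjusted p = 0.0101, limma). Fancl, the ubiquitin ligase subunit of the Fanconi core complex, fell by 0.30 ± 0.07 (0.0317), and the fork protection gene Timeless by 0.22 ± 0.05 (0.0303). In 1D11_radiation against control tumors 2 of the 78 were called, both higher, against 2.35% of all genes (1.71% higher and 0.636% lower). They were Hus1 (0.60 ± 0.11) and Rad18, a ubiquitin ligase that marks stalled forks (0.53 ± 0.10, adjusted p = 0.0293, limma). In radiation against control tumors 1 of the 78 was called, against 2.39% of all genes (1.48% higher and 0.911% lower). It was Hus1, which rose by 0.50 ± 0.11 (adjusted p = 0.0432, limma). In the other 5 comparisons none of the 78 was called (limma), with 0 to 9 at an unadjusted p under 0.05, against 5.4% to 15.5% of all genes.

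**Figure D5:**
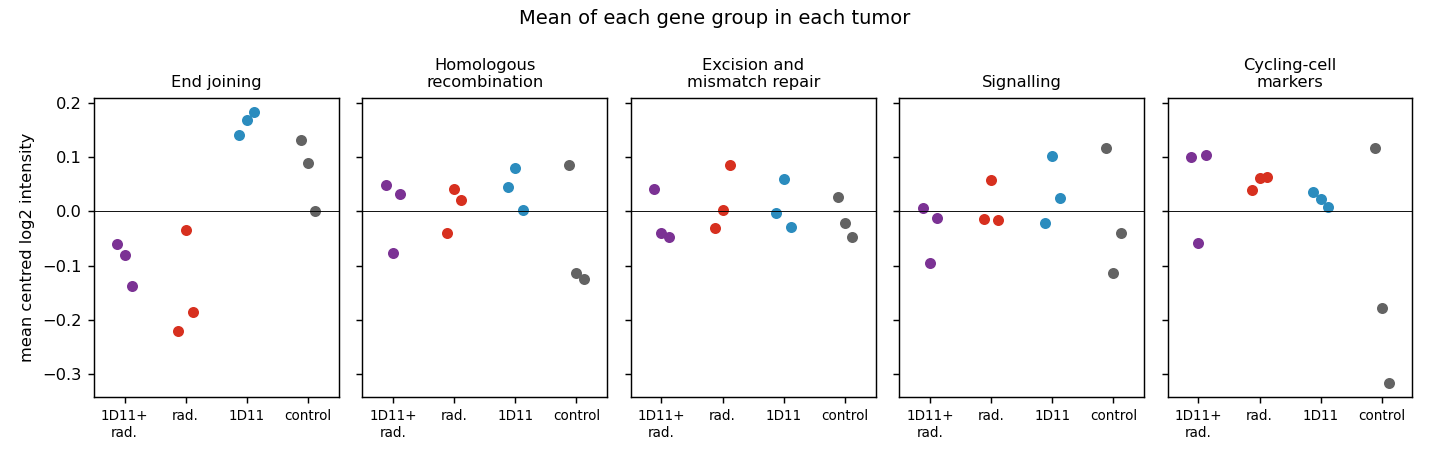
Mean log2 intensity of each gene group in each of the 12 tumors, every gene centred over the tumors, for 6 end joining, 12 homologous recombination, 8 excision and mismatch repair, 8 signalling and 9 cycling-cell genes. The end joining mean is below 0 in the 6 irradiated tumors and at or above 0 in the 6 unirradiated ones, a split that rests on Nhej1 and Xrcc4, while control replicates 2 and 3 are lowest for cycling-cell markers.

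Each gene group was also averaged within each tumor. The end joining mean lay at -0.14 to -0.06 in 1D11_radiation tumors and at -0.22 to -0.03 in radiation tumors, against 0.14 to 0.18 in 1D11 tumors and 0.00 to 0.13 in control tumors. That separation rested on Nhej1 and Xrcc4. The mean of the other 4 end joining genes was 0.03, -0.06 and -0.04 in 1D11_radiation tumors and -0.19, -0.06 and -0.07 in radiation tumors, against 0.12, 0.18 and 0.14 in 1D11 tumors and 0.10, -0.07 and -0.09 in control tumors. Control replicates 2 and 3 lay among the irradiated tumors. The other 3 roles lay between -0.12 and 0.12 in every tumor, with irradiated and unirradiated tumors mixed. Markers of cycling cells were higher in irradiated tumors in 9 of 9 cases with none called (median 0.11), lowest in control replicates 2 and 3 (-0.18 and -0.32), where homologous recombination genes were lowest as well (-0.11 and -0.12). Endothelial markers were lower in 4 of 4 cases with 1 called (median -0.40) and fibroblast markers in 5 of 5 with 1 called (median -0.36). The fibroblast list ran from -0.86 to 0.34 in 1D11_radiation tumors and -0.62 to 0.58 in radiation tumors, against -0.02 to 0.29 in 1D11 tumors and 0.16 to 0.51 in control tumors. The endothelial list ran from -0.27 to -0.06 in 1D11_radiation tumors and -0.36 to -0.19 in radiation tumors, against -0.01 to 0.41 in 1D11 tumors and -0.09 to 0.48 in control tumors. Leukocyte markers were higher in 5 of 7 cases with 1 called (median 0.12), and in radiation against control in 6 of 7 with 2 called (median 0.31). Their list ran from -0.22 to 0.10 in 1D11_radiation tumors and 0.09 to 0.25 in radiation tumors, against -0.08 to 0.15 in 1D11 tumors and -0.28 to 0.00 in control tumors. Epithelial markers were higher in 3 of 3 cases with none called (median 0.24). Keratinocyte markers were lower in 4 of 4 (median -0.57), with the list above 0 only in 1D11 replicates 1 and 3. Skeletal muscle markers were higher in 10 of 10 (median 0.21), and none of either list was called. Over all genes 7.26% were called between irradiated and unirradiated tumors, and 2.39% in radiation against control. All 4 endothelial, all 5 fibroblast and 7 of 8 leukocyte markers were above the filter level. The part of these lists in the changes of Nhej1, Xrcc4, Lig3 and Ercc1 was not tested. Without control replicate 1 and radiation replicate 3, the tumors with most skeletal muscle signal, the radiation comparison called 5 members, the 4 above and Atr. Calls over all genes rose there as well, to 1410 of 12735 against 925 with all tumors.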

How the data were processed

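Deposited intensity values of 45101 probe sets on 12 Affymetrix arrays were used. How the authors corrected, normalized and summarized this intensity is not stated in the labels. Per the labels' protocols, each array took cRNA from 6 µg of RNA. Values (lowest 7.40, none at or below the floor of 1) were taken as log2 without further scaling, since sorted log2 values of any 2 arrays differed by at most 0.129. The 64 control probe sets were left out. Probe sets with 1 symbol in the platform annotation (34945) were used, 1 per gene, the brightest over all arrays. The lowest 30% of gene means (below log2 5.37) were not tested.

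Tests used limma 3.58.1 under R 4.3.3 (1 mean per group over all 12 arrays, eBayes, two-sided, Benjamini-Hochberg over 12735 genes). A main effect averages both antibodies or both radiation states. The step was tested on simulated data with known changes. For irradiated against unirradiated tumors it recovered 38% of log2 changes of 0.25, 74% of 0.5 and 100% of 1. For radiation against control it recovered 6%, 62% and 98%. Small changes could thus go uncalled. Precision is limited by 3 arrays per group.

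The rule for named genes allowed every member, with each called member and up to 3 per role by smallest p in each comparison, and of the other repair genes those called, up to 4 per comparison. The members and lists were chosen with earlier results of these data known. Replicate numbers were not used as pairs: 2 of 18 same-numbered pairs of arrays correlated above 0.1 after removal of group means. Alternatives were quantile normalization, other filters, the mean of probe sets, log2(value + 16), array weights, the compared groups alone, a replicate block and left-out tumors.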

Additional observations from a re-analysis of the deposited data

How the results depend on the processing

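Counts of called members (main values 4 for irradiated against unirradiated tumors, 1 for radiation against control, 1 for 1D11_radiation against control and 0 for the other 5 comparisons) depended on the tumors and on the fit. With any single tumor left out they ran from 2 to 6 for irradiated against unirradiated tumors, 0 to 1 for radiation against control and 0 to 3 for 1D11_radiation against control, and stayed 0 for the other 5. Calls over all genes then ran from 20 to 436 in radiation against control and from 17 to 424 in 1D11_radiation against control. In the other 5 they ran from 0 to 227. Radiation against control gave 0 without the filter on dim probe sets (250 of 18193 genes called), 0 with the compared groups alone (6 of 12735), and 2 with array weights. 1D11_radiation against control gave 0 with the compared groups alone (1 of 12735 genes called) and 3 with array weights. 1D11_radiation against 1D11 gave 5 with array weights (Atr, Lig3, Nhej1, Rad51c and Xrcc4), 1 with the compared groups alone and 2 without control replicate 1 and radiation replicate 3, where 1491, 119 and 419 of 12735 genes were called, against 10 in the reported fit. Array weights also called 890 genes in radiation against control and 923 in 1D11_radiation against control, against 304 and 299. Leaving out 1D11 replicate 3 as well, an alternative chosen after seeing the data, gave 0 for radiation against control and 0 for 1D11_radiation against control. There 441 and 230 of 12735 genes were called. The cause of these shifts was not tested. With the replicate block, which rests on shared numbers only, irradiated against unirradiated tumors gave 3 (without Lig3, adjusted p = 0.0501), and radiation against control gave 1, Nhej1 in place of Xrcc4 (adjusted p = 0.0617). With that block 658 and 206 of 12735 genes were called, against 925 and 304 in the reported fit. In irradiated against unirradiated tumors, Xrcc4 kept its call under 21 of 21 alternatives and Nhej1 under the 20 that tested it. Ercc1 kept it under 16 of 21 and Lig3 under 12 of 21. No change of sign occurred for these genes. With the mean of probe sets Nhej1 had -0.29, Ercc1 0.32 and Lig3 0.00. A count of 1 did not always name the same gene: radiation against control gave Lig3 in place of Xrcc4 without radiation replicate 3, and 1D11_radiation against control gave Atr with the lowest 50% of genes left out, where Nhej1 was not tested. Over all genes, irradiated against unirradiated tumors gave 925 calls, 2176 with array weights, 1410 without control replicate 1 and radiation replicate 3, and 407 to 1159 with a single tumor left out. Signal over background per array is not known, so values near the filter level, such as those of Bard1 and Nhej1, are the least certain.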
